A study of Homo sapiens with 6 samples.

Results

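The genes described here encode 10 surface antigens by which acute myeloid leukaemia stem and progenitor cells are recognised, sorted or targeted: CD34, CD38, CD44, CD47, CD33, IL3RA (CD123), KIT (CD117), FLT3 (CD135), CD99 and CLEC12A (CLL-1). Their members were taken as all probes whose platform gene symbol is exactly one of these names, which gave 19 of the 47322 probes on the array and 9 of the 20046 genes named on it. No probe carried the symbol CD33, and that gene was not analysed here. The samples were 6 Illumina bead arrays of KG1a, 1 human acute myeloid leukaemia cell line grown in RPMI 1640 with serum. The 3 arrays of the 7l group held RNA from cells exposed for 24 h to 2 µM of 7l, an agent known here by its code name only, and the 3 control arrays held RNA from control cells, for which the sources used here give neither the vehicle nor the hours in culture. Separate cultures are not stated in the labels for the 3 samples of a group, and the p-values therefore cover only sample-to-sample spread, which may be technical.

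Leukaemia stem cells are classically sought in the CD34+ CD38- fraction of blasts, although the phenotype varies between patients. CD34 is a sialomucin of blood stem and progenitor cells that is lost as they mature, whereas CD38, an enzyme that breaks down NAD, is gained by more committed progenitors. CD44 binds hyaluronan and CD47 binds SIRPA on macrophages to inhibit engulfment. IL3RA, KIT and FLT3 are receptors through which interleukin 3, stem cell factor and FLT3 ligand promote growth and survival of immature myeloid cells.

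Of the 9 antigens measured, CD34, CD44, CD47 and CD99 were clearly expressed in KG1a cells with and without 7l, and CD38 and IL3RA gave dim signals. KIT gave a signal as dim as that of CD38 on 2 of the 3 arrays of 7l cells and was below background on the other 4 arrays, and FLT3 and CLEC12A were below background on all 6. No antigen passed the test for a difference between 7l and control cells. Of the 6 that could be tested, IL3RA had the largest fitted change, 2.45-fold higher with 7l, and CD34 was 1.17-fold lower on its brightest probe. In both, the 3 arrays of 1 group lay beyond all 3 of the other, as in 15.1% (7l higher) and 13.8% (7l lower) of tested genes. Neither difference was large enough against the replicate spread once all genes were taken into account. Both passed under 1 alternative, a trended and robust prior, which called 7.21% of all tested genes higher and 6.59% lower.

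Values are the deposited intensity of a probe on a linear scale with a floor of 1, and tests used its log2. Background was set at an intensity of 5.49, the 95th percentile of 6-array log2 means over 564 olfactory receptor, taste receptor and keratin-associated probes. These genes were taken to be mostly silent in blood cells, which was not tested. Single arrays, compared with this level, vary more than such means. The median intensity was 4.95 on every array. Of 9 markers of the KG1a progenitor state examined, 8 were above background on all 6 arrays, among them CD34, CD7 and GATA2, while FGFR1 was above it on 0 of 3 arrays of 7l cells and 2 of 3 arrays of control cells. Markers of other lineages were mixed. MPO and CEACAM8 (granulocytes), CD3E, CD5 and CD8B (T cells), PAX5 (B cells) and CDH1 (epithelium) were above background on no array. By contrast, CSF3R (granulocytes), CD79A and CD79B (B cells) and CD14 and VCAN (monocytes) were above it on all 6. So were COL1A1 (7.00 to 14.5) and COL3A1 (7.44 to 14.2), collagens of fibroblasts. These values overlap those of CD38, so a dim value above background need not be signal of that gene. CD3D was bright on all arrays, and the summed intensity of the 8 T cell markers was 1781 to 2119 in 7l cells and 3098 to 3172 in control cells. In that sum CD3D was the 1 marker above background on all 6 arrays, and limma called it lower with 7l, at -0.66 on the log2 scale. The sums of the B cell markers (115 to 140 with 7l, 170 to 209 in controls), megakaryocyte markers (411 to 433 and 507 to 562) and mast cell markers (271 to 298 and 363 to 381) were also lower on every 7l array, with ITGA2B, a platelet integrin chain, called lower at -0.53. Such sums follow their brightest genes, ITGA2B among megakaryocyte and CPA3 among mast cell markers. Other tested megakaryocyte markers went both ways on the log2 scale (PPBP 0.52, ITGB3 0.42, GP1BA -0.003, GP9 -0.33). So did the mast cell markers (CPA3 -0.42, HDC -0.46, TPSAB1 0.08, TPSB2 0.60), and none of these was called. The part of these markers in the antigen values was not tested.

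The question asked of the antigens was whether exposure to 7l changed their transcripts. A limma fit over the brightest probe of each gene tested 12334 genes with a mean above the median of all probes, and called a gene at a Benjamini-Hochberg adjusted p under 0.05. It called 1.22% of tested genes higher and 1.16% lower with 7l. Of the 9 antigen genes 6 were tested, and 0 were called higher and 0 lower. At an unadjusted p under 0.05 there were 1 higher (IL3RA) and 1 lower (CD34), beside 10.8% and 9.72% of all tested genes. A second limma fit over 23661 probes above the same level called 0.38% of probes higher and 0.186% lower, and among the 13 antigen probes it tested, 0 were called in either direction. Again 1 probe was higher and 1 lower at an unadjusted p under 0.05, beside 7.78% and 8.18% of all tested probes. The median log2 change was -0.04 over the 6 antigen genes and 0.01 over all tested genes. The median size of change, sign left aside, was 0.19 and 0.21 on the log2 scale.

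**Figure D1:**
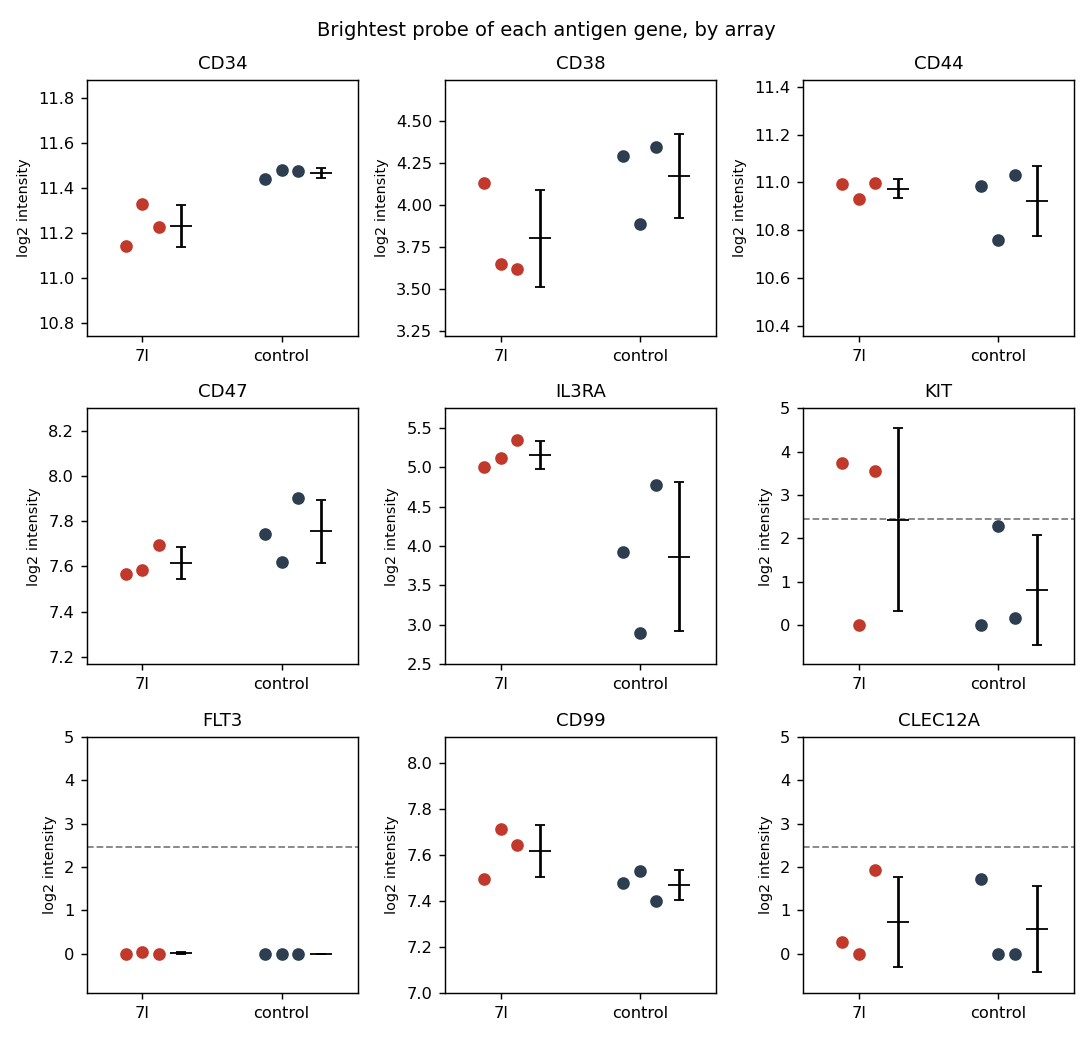
Log2 intensity of the brightest probe of each of the 9 antigen genes, with 1 point per array, 7l in red left of control in dark blue, and the mean with its SD (n = 3) beside each group. The vertical axis differs between panels, and the dashed line marks the background level of 2.46. The 7l and control arrays are separate for CD34 and IL3RA and overlap in the other panels.

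CD34 was measured by 5 probes. The brightest (ILMN_2341229) read 2264, 2573 and 2394 in the 3 samples of 7l cells, against 2778, 2855 and 2848 in those of control cells. All 3 values with 7l were below all 3 controls, and the controls lay within a narrow band. Groups separated in this way, with 7l lower, in 13.8% of tested genes. The log2 mean was 11.23 ± 0.09 in 7l cells and 11.46 ± 0.02 in control cells (SD, n = 3 each), a difference of -0.23 with a 95% interval of -0.42 to -0.04 (limma adjusted p = 0.185). At its own error CD34 would have needed a log2 change of 0.48 to be called. With a trended and robust prior, which takes the expected spread from genes of like intensity, the same difference passed (limma adjusted p = 0.0101), beside 6.59% of tested genes lower under that prior.

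The second bright CD34 probe (ILMN_1732799) did not repeat this separation. It read 1671, 1609 and 1616 with 7l and 1676, 1761 and 1643 in control cells. The values of the groups overlap, and the log2 change was -0.05 (95% interval -0.25 to 0.14, adjusted p = 0.793 in the limma fit over probes). Another probe (ILMN_1694249) was dim, at 19.8, 26.8 and 27.3 with 7l and 23.2, 27.8 and 11.4 in controls, with a log2 change of 0.33 and an interval of -0.63 to 1.28. The remaining 2 CD34 probes were above background on 1 array of each group and had intervals wider than 4 log2 units, so they carry almost no information on a change. With all 5 probes averaged, CD34 differed by -0.05 (limma adjusted p = 0.924). The 7l arrays were below all controls on 1 of the 2 bright CD34 probes and not on the other. All 5 probes are annotated to 1 CD34 transcript record, and their positions along it were not used here.

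CD38 had 1 probe, which was dim but above background on all 6 arrays. It read 17.5, 12.6 and 12.3 with 7l and 19.6, 14.8 and 20.3 in control cells. The groups overlap, with 2 of the 3 values from 7l cells below every control. The log2 change was -0.37 with an interval of -0.88 to 0.14 (limma adjusted p = 0.372), and with an offset of 16 the change was -0.18. The ratio of CD34 to CD38 signal was compared as the difference of their log2 values on each array, 7.01, 7.68 and 7.60 with 7l and 7.15, 7.59 and 7.13 in control cells. The change was 0.14 (exact permutation test, two-sided, p = 0.80, where 3 against 3 arrays allow no p under 0.10, so that the test could not have passed), and the groups overlap. These are levels in bulk RNA, in which fewer cells of a type and less RNA per cell cannot be told apart.

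CD44 and CD47, the adhesion receptor and the inhibitor of engulfment, were read by 3 and 2 probes. The brightest CD44 probe (ILMN_1803429) gave 2040, 1950 and 2045 with 7l and 2026, 1730 and 2091 in controls, values that overlap throughout. Its log2 change was 0.05, with an interval of -0.19 to 0.29 (limma adjusted p = 0.816). The interval leaves room for a rise of up to 1.23-fold or a fall of up to 1.14-fold at that confidence. The second CD44 probe changed by -0.08 (interval -0.40 to 0.24). Each CD44 probe is annotated to a transcript record of its own. The dimmest (ILMN_1778625) read 74.9, 78.6 and 65.3 with 7l against 86.1, 75.3 and 115 in controls. Its change was -0.32 with an interval of -0.79 to 0.16 (limma adjusted p = 0.484), and the groups overlap.

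The brighter CD47 probe read 189, 192 and 207 with 7l and 214, 197 and 239 in control cells, with a log2 change of -0.14 (interval -0.39 to 0.11, limma adjusted p = 0.488). The dimmer one (ILMN_2356991) read 28.3, 21.7 and 26.9 with 7l and 37.3, 30.7 and 30.3 in controls, and here all 7l values lay below all controls. Its change was -0.36, with an interval of -0.74 to 0.03 (adjusted p = 0.346 in the limma fit over probes). Groups separated with 7l lower in 12.7% of all tested probes. Both CD47 probes were lower with 7l, and neither passed.

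CD99, a small glycoprotein of the leukocyte surface that is raised on leukaemia stem cells, had 1 probe. It read 180, 210 and 200 with 7l and 178, 185 and 169 in control cells. The lowest 7l value fell within the control range, so the groups overlap. The log2 change of 0.15 had an interval of -0.08 to 0.37 (limma adjusted p = 0.420).

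**Figure D2:**
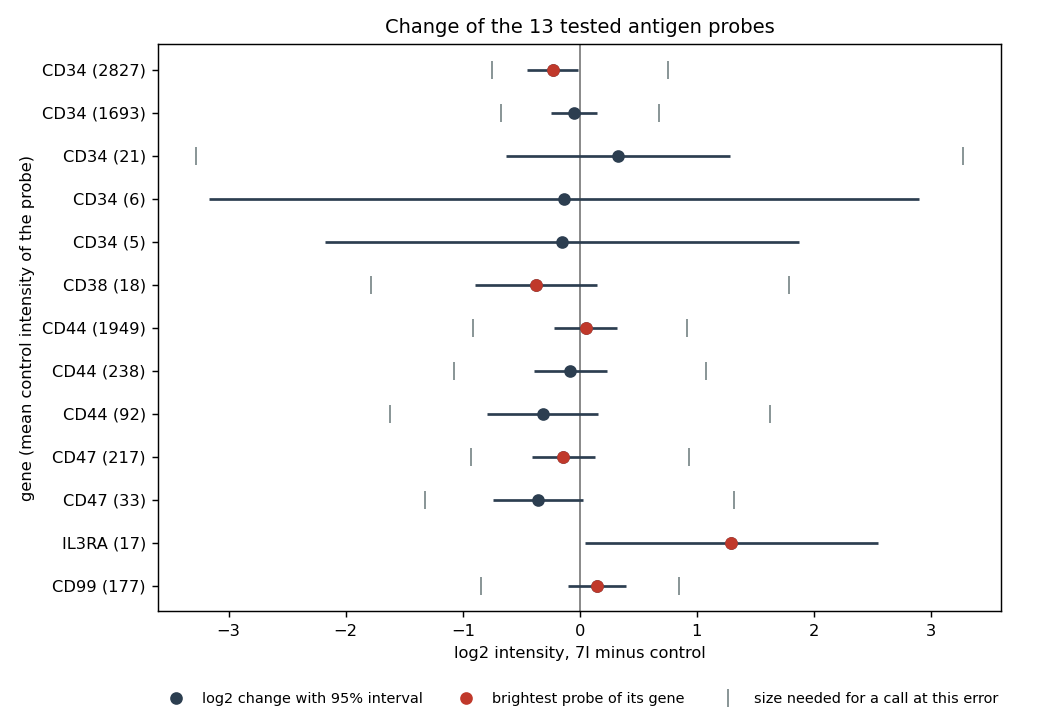
Log2 change (7l minus control) of the 13 tested antigen probes with 95% intervals from the limma fit over probes, brightest probe of each gene in red, and the probe's mean control intensity in brackets. Grey ticks mark the size each probe would have needed to be called at its own error, and ticks beyond the axis are left out. No point reaches the size it needed, with CD34 at -0.23 against 0.75 and IL3RA, whose tick is left out, at 1.29 against 4.28.

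Among the growth factor receptors, IL3RA, the alpha chain of the interleukin 3 receptor, had the largest change of those that could be tested. Its single probe read 32.0, 34.9 and 40.9 with 7l and 15.2, 7.43 and 27.4 in control cells. All 7l values were above all controls, as in 15.1% of tested genes and 12.1% of tested probes, but the controls spread over a wide range. The log2 mean was 5.16 ± 0.18 in 7l cells and 3.87 ± 0.94 in controls (SD, n = 3 each), a change of 1.29 with an interval of 0.06 to 2.53 (limma adjusted p = 0.228). Control replicate 2 was the lowest value, and without it the change was 0.81 (adjusted p = 0.292). With an offset of 16 added before log2, which shrinks folds of dim probes, it was 0.71 (limma adjusted p = 0.0859). Under the trended and robust prior the change of 1.29 passed (limma adjusted p = 0.0062), beside 7.21% of tested genes higher under it. IL3RA pairs with CSF2RB, the shared beta chain, which was dim at a log2 change of -0.05 ± 0.30 (SE). CSF2RA, the alpha chain of the GM-CSF receptor, measured -0.06 ± 0.07, and neither passed.

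KIT, the receptor for stem cell factor, was below the level needed for testing on both probes. The brighter read 13.3, 1.00 and 11.7 with 7l and 1.00, 4.84 and 1.12 in control cells. It was above background on 2 of the 3 arrays of 7l cells and on 0 of 3 controls, but the other 7l array sat at the floor and the groups overlap. The log2 change was 1.62, larger than that of IL3RA but imprecise: fitted without the intensity filter its standard error was 1.33 (limma adjusted p = 0.687), and it ranged from 0.96 to 2.83 without 1 array. Its size rests on values at or near the floor. With an offset of 16 the KIT change was 0.40, below the 0.71 of IL3RA. With values raised to the background level it was 0.79, against 1.29 for IL3RA. The other KIT probe was above background on 1 array with 7l, at 7.98, and on 0 controls. FLT3 was listed at the floor of 1 on 5 arrays and at 1.03 on 1 array of 7l cells, below background everywhere. CLEC12A, an inhibitory lectin receptor carried by leukaemic but not normal stem cells, was below background on all 6 arrays with all 3 probes, the highest single value being 3.91. Without the filter FLT3 and CLEC12A did not pass either (limma adjusted p = 0.865 and 1), and with both groups below background no fold is given for them.

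**Figure D3:**
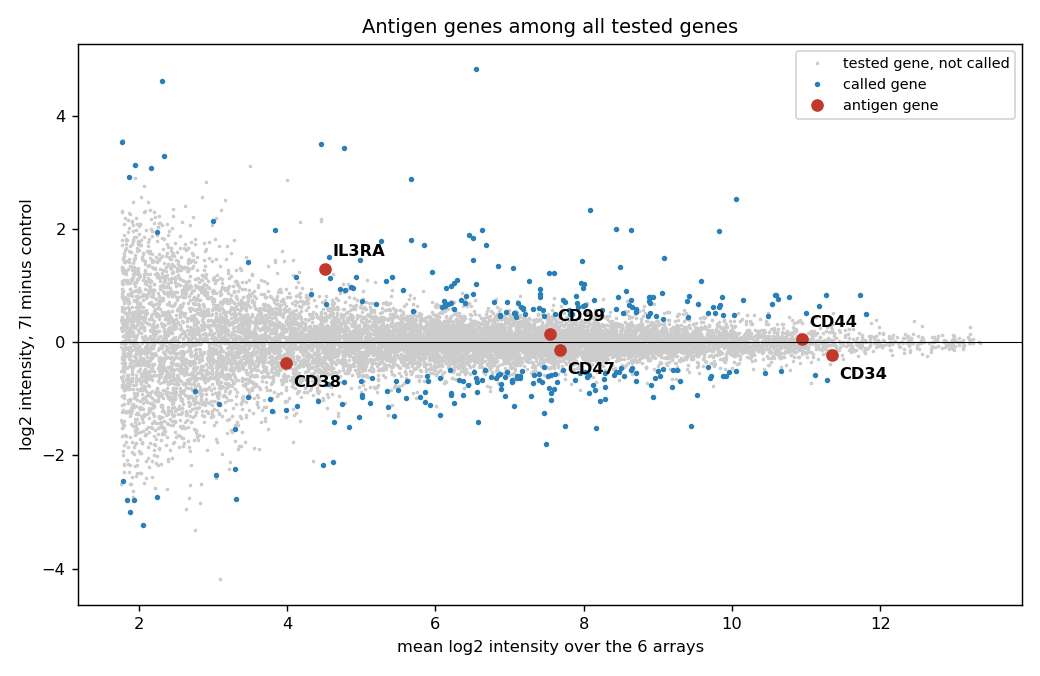
Log2 change (7l minus control) against mean log2 intensity for the 12334 tested genes, with called genes in blue and the 6 tested antigen genes in red. CD34 and CD44 stand at the bright end with changes of -0.23 and 0.05, and IL3RA lies among dim genes, whose changes scatter widely.

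The spread between arrays set what could be seen. Over tested probes the median standard error of a log2 change was 0.63 for probes with a mean log2 of up to 4, 0.19 between 4 and 6 and 0.09 above 10. The bright CD34 and CD44 probes belonged to the most precise class. In the fit over genes, CD38 and IL3RA would have needed log2 changes of 1.28 and 3.10 to be called, each at its own error.

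The sequence before the transcription start of each antigen gene was searched for 5 short motifs on both strands for factors of oxidative stress, interferon, cytokine and blood cell gene control. Motifs were counted in the 250 bases before the start of 27195 genes (RefSeq, GRCh38.p14). The antioxidant response core TGACNNNGC was in 11.0% of all promoters and in those of CD44 and CD47 among the 10 antigens. The STAT motif TTCNNNGAA was in 6.79% of all and in IL3RA, which held 2 copies. The interferon response element, searched in the shortened form GAAANNGAA, was in 7.06% of all and in CD38. That match depends on the shortening, since the full element, with 1 more A at its end, was in none of the 10 windows. The RUNX motif TGTGGT and the GATA motif AGATAA were in 10.9% and 9.38% of all and each in CLEC12A. The CD34 window held none of the 5. The windows of the 4 antigens above background that hold a match are shown so that the matches can be read; they run 5′ to 3′ on the strand of the gene with matches in capitals. IL3RA lies in the region shared by chromosomes X and Y and is shown on the plus strand of X, CD38 and CD44 are on the plus strand and CD47 on the minus strand. A match is a description of letters and not evidence of binding.
IL3RA chrX:1336535-1336784: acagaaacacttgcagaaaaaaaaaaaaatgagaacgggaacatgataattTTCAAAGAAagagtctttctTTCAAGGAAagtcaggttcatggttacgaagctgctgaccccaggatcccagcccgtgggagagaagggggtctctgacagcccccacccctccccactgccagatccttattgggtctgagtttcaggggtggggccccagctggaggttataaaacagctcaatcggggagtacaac
CD38 chr4:15778078-15778327: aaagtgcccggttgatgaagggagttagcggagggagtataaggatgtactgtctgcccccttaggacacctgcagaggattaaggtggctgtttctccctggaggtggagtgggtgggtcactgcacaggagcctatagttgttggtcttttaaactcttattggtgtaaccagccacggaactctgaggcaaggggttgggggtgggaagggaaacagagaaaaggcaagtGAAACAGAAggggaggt
CD44 chr11:35138921-35139170: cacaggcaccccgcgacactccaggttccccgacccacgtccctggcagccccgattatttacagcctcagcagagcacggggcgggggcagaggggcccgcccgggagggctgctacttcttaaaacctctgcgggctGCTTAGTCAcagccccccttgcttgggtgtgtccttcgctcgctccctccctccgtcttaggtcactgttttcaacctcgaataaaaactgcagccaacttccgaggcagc
CD47 chr3:108091032-108091281: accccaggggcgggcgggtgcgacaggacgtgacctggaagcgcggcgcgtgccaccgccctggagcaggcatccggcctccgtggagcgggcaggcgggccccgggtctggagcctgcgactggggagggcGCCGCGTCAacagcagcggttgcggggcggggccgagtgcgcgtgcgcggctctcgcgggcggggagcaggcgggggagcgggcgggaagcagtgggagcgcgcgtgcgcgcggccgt

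In IL3RA, the tested antigen with the largest fitted change, the STAT matches begin 199 and 179 bases before the start. In CD38, measured as dim in both groups, the interferon match begins 17 bases before it. In CD44 and CD47, which did not pass the test on any probe, the antioxidant matches begin 111 and 118 bases before it.

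Related genes were set beside the antigens in 5 lists. Below, uncalled genes are named only where their groups do not overlap, apart from CD14 and genes at the floor or below background. Their separation therefore follows from the choice. CSF2RB and CSF2RA, listed partners named above, were outside that rule. Groups separated in 15.1% of all tested genes with 7l higher and in 13.8% with 7l lower. A list of further leukaemia stem cell antigens had 27 tested genes, of which limma called 0 higher and 0 lower (4 higher and 3 lower at an unadjusted p under 0.05), and the median log2 change was -0.04. For all 5 lists, the share of all tested genes at that unadjusted p was 10.8% higher and 9.72% lower. The share of all tested genes called was 1.22% higher and 1.16% lower. CALCRL, a receptor for adrenomedullin found on leukaemia stem cells, read 67.1, 58.4 and 72.7 with 7l and 95.6, 87.2 and 109 in controls, a change of -0.56 ± 0.13 (SE, limma adjusted p = 0.0978). Every 7l value was below every control, which the choice of named genes required. IL1RAP, a co-receptor for interleukin 1, measured 0.54 ± 0.18, ITGA6, an integrin alpha chain, -1.08 ± 0.52 and CD48, a ligand of CD244, -1.58 ± 0.70, and these did not pass either. ITGA6 and CD48 were above background on 2 of 3 arrays with 7l, and 1 array moved both: ITGA6 was -0.54 without 7l replicate 3 and CD48 was -0.81 without 7l replicate 1. The listed antigens THY1, CD27 and CD36 were at the floor in both groups.

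Of the ligands and receptor partners of the 10 antigens, 15 were tested and limma called 0 higher and 0 lower (1 higher and 2 lower at an unadjusted p under 0.05), with a median of -0.06. HMMR, a hyaluronan receptor beside CD44 that also acts at the mitotic spindle, read 251, 234 and 282 with 7l against 167, 122 and 158 in controls. The groups were apart, the change was 0.79 ± 0.15 (limma adjusted p = 0.0727), and it passed with probes averaged (adjusted p = 0.0412) or an offset of 16 (0.0185). PECAM1, an adhesion molecule that binds CD38, read 88.1, 65.8 and 84.1 with 7l and 127, 125 and 120 in controls, all lower with 7l. Its change of -0.66 ± 0.13 did not pass (adjusted p = 0.0731) but did with an offset of 16 (adjusted p = 0.0246). SPP1 (osteopontin, a CD44 ligand) measured 1.11 ± 0.47 and MMP9, a protease that docks on CD44, -1.15 ± 0.31, both dim and not past the threshold. SIRPA and THBS1, partners of CD47, were above background on no array.

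Downstream of KIT and FLT3, 21 adaptors and brakes were tested, and limma called 0 higher and 1 lower (2 higher and 3 lower at an unadjusted p under 0.05), with a median of -0.05. Of all tested genes, 1.22% were called higher and 1.16% lower. The listed gene called lower was GAB1, a docking protein of receptor kinases. It read 4.13, 6.47 and 7.11 with 7l and 16.1, 18.1 and 15.9 in control cells, a change of -1.54 ± 0.23 (limma adjusted p = 0.0425). Its 7l values were near the background level, and above it on 2 of 3 arrays. The call was lost without any 1 array (adjusted p = 0.0654 to 0.144), without the intensity filter (0.0598) and with the replicate number as a block (0.197). With an offset of 16 the change was -0.58 (0.0121), and with its probes averaged it was -0.69 and too dim to be tested. SHC1, an adaptor that leads to RAS, read 267, 232 and 283 with 7l and 171, 178 and 151 in controls, at 0.64 ± 0.11 (adjusted p = 0.0608). SOS1, the exchange factor for RAS, measured 0.37 ± 0.09, DOK2, an inhibitory adaptor, 0.82 ± 0.34 and PLCG1, a phospholipase, -0.26 ± 0.08, and none of these passed. With the probes of SHC1 averaged its change was -0.42.

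**Figure D4:**
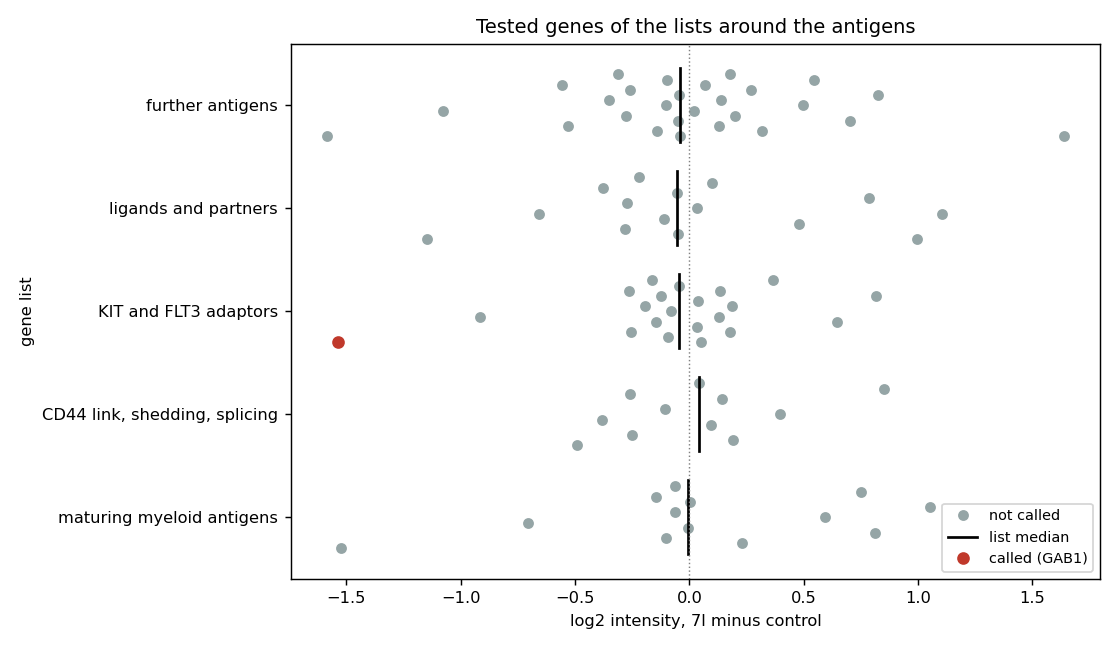
Log2 change (7l minus control) of each tested gene in the 5 lists around the antigens, with a black bar at the median of each list. GAB1 at -1.54 is the 1 called gene, and the medians lie between -0.06 and 0.04.

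In the list for the cytoskeletal link, shedding and splicing of CD44, limma called 0 of 11 tested genes higher and 0 lower (2 higher and 3 lower at an unadjusted p under 0.05, beside 10.8% and 9.72% of all tested genes), with a median of 0.04. VCAN, a hyaluronan-binding proteoglycan, measured -0.49 ± 0.10, SRSF1, a splicing factor, -0.26 ± 0.08, ADAM10, a sheddase of CD44, -0.25 ± 0.09 and NF2 (merlin) 0.85 ± 0.27. ADAM10 and NF2 turned in sign when their probes were averaged, to 0.32 and -0.06. Among surface antigens of maturing myeloid cells 13 were tested, with 0 called higher and 0 lower (2 higher and 0 lower at an unadjusted p under 0.05), with a median of -0.01. ANPEP (CD13) measured 0.23 ± 0.09, FCGR3B (CD16b) 0.59 ± 0.13 (0.12 with its probes averaged, adjusted p = 0.895) and CD68, a lysosomal glycoprotein of macrophages, -0.15 ± 0.06 (0.20 with its probes averaged). CD14 was dim at 0.75 ± 0.29 with overlapping groups, and FCGR1A, TLR4 and CD4 were at the floor in both groups.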

How the data were processed

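Expression was measured on 6 Illumina bead arrays, 3 of KG1a cells given 7l and 3 of control cells, grouped and numbered by their titles. The values are intensity per probe, linear and never under 1, in a single table deposited by the authors. Per the labels' protocols, biotinylated cRNA was made from Trizol-extracted, DNase-treated RNA. Software, background correction and normalization are not stated in those sources. Sorted values match between arrays at 97.8% of ranks (tolerance 0.0001 of their size), the form that quantile normalization gives, so a shift of all transcripts could not be seen.

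Probes were named through a platform table (30113 with 1 symbol, 8 with several, 17201 unnamed there). Each gene was represented by its probe with the highest mean, and log2 values were fitted with limma 3.58.1 in R 4.3.3 (lmFit and eBayes, two-sided, 4 residual degrees of freedom). All probes above the same level, log2 1.76, were fitted separately. Intervals are at 95% and not adjusted for the number of genes. In 20 simulated sets of the 12334 genes of this comparison, each with 200 changed, the test called on average 16% of genes moved by 0.5 log2 units, 49% by 1, 72% by 2 and 80.4% by 3, and 6.13% of calls were unchanged genes. The share of changed genes in these sets was fixed in advance and is not known for the real data. The rates depend on that share and may differ here. The number of arrays limits the precision.

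The members and lists were chosen with earlier results of these data known. Named genes are all members, up to 6 called genes of each list and up to 4 more with the largest change among those whose groups do not overlap; CSF2RB, CSF2RA, CD14 and genes at the floor were named after their values were seen. The motifs were also chosen then, and the interferon motif was searched in a shortened form. Alternatives were other normalizations, filters and priors, averaged probes, array weights, an offset of 16, a replicate block and each array left out. Plots used matplotlib 3.10.9 in Python 3.11.15.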

Additional observations from a re-analysis of the deposited data

How the results depend on the processing

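Antigen calls were 0 higher and 0 lower, at gene and at probe level, in all alternatives except the trended and robust prior, which gave 1 higher (IL3RA) and 1 lower (CD34) at both levels. Genes called over the whole array numbered 150 higher and 143 lower of 12334 tested (probes 90 and 44 of 23661). Without the filter they were 232 and 205 of 20046 (probes 228 and 195 of 47322). With the strict filter they were 251 and 229 of 11020 (probes 186 and 176 of 19922). They were 889 and 813 with the trended and robust prior (probes 1077 and 1146) and 385 and 339 with an offset of 16 (probes 339 and 327). With 1 array left out they fell to 6 to 15 higher and 0 to 18 lower (probes 3 to 23 and 1 to 13). The arrays already had near equal distributions, so quantile normalization again and a shift to a common 75th percentile could barely move a value. They changed no antigen call and do not test the choice of normalization. Array weights changed no antigen call either.

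The replicate block left 0 genes and 0 probes called in either direction. Same-numbered arrays of the 2 groups correlated at -0.02, -0.00 and 0.00 in their deviations over tested genes, and 0 of the 3 correlated best with its own number. No pairing by number was seen in the values, which cannot show whether the samples were prepared in pairs.

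The list of adaptors of KIT and FLT3 had 1 lower gene, and 0 lower without the filter, with the replicate block, with probes averaged and without any 1 array (lowest 0, highest 0). It had 1 higher with the strict filter or an offset of 16, and 2 higher and 2 lower with the trended and robust prior. The further antigens had 1 lower with the strict filter, 2 higher and 3 lower with the trended and robust prior and 1 higher and 2 lower with an offset of 16. The ligands and partners had 1 higher and 2 lower with the trended and robust prior, 1 higher and 1 lower with an offset of 16 and 1 higher with probes averaged. The CD44 list had 1 higher and 1 lower with the trended and robust prior. Among named genes, CALCRL, HMMR, PECAM1, SOS1, SHC1, PLCG1 and SRSF1 passed with that prior, CALCRL, HMMR, PECAM1 and SHC1 with an offset of 16, and SHC1 with the strict filter.

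The CD34 to CD38 difference was -0.046 with an offset of 16, and 0.02 to 0.35 without 1 array. The brightest CD44 probe ranged from -0.033 (without control replicate 2) to 0.10 without 1 array, and CD44 was -0.12 with probes averaged. Averaging also turned SHC1 (-0.42), NF2 (-0.060), ADAM10 (0.32) and CD68 (0.20). Dim CD34 probes changed sign without 1 array, ILMN_1683479 between -0.62 and 0.55, ILMN_2257587 between -0.94 and 0.86 (0.0081 with an offset of 16) and ILMN_1694249 between -0.060 and 0.58. The cause was not tested. CD34 on its brightest probe kept its sign, at -0.28 to -0.19 without 1 array, as did CD38, at -0.54 to -0.28, and IL3RA, at 0.81 to 1.75. An offset of 16 left smaller changes in the dim genes ITGA6 (-0.31), CD48 (-0.53), IL1RAP (0.31), SPP1 (0.48), MMP9 (-0.50) and DOK2 (0.41), none past the threshold. Signal near background limits what can be said of KIT, FLT3 and CLEC12A.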
